A study of Parascaris univalens with 7 samples.

Results

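The testis and the ovary of the horse roundworm Parascaris univalens were compared as the male and the female germline, over all 15027 genes of the deposited expression table. A gene was represented by whichever of its transcripts had the highest mean over the 5 tissues of the table, and the difference was taken as testis minus ovary on the log2(RPKM + 1) scale. RPKM is a read count divided by transcript length and library depth, so levels of different genes can be set side by side, while a comparison of tissues also depends on how their libraries are scaled. The 2 libraries compared, testis (labelled Male germline) and ovary (labelled Female germline), were among 7 in the series. The other tissue libraries, embryo, intestine and carcass, all carry the label Male somatic, and 2 libraries of mixed RNA marked the 5′ ends of transcripts. The animals belonged to a North American wildtype strain, with no mutation named and no treatment in any group, and were adults taken from the intestine of horses. The labels mention regions of the germline without saying which of them went into each library. The sources used here give neither the age of the worms nor the number of animals behind a library. There was 1 library per tissue, so no difference has a replicate error or a p-value, and "higher" describes these libraries.

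Nematode sperm have no flagellum and crawl on a pseudopod whose motor is a filament network of major sperm protein (MSP) in place of actin. Oocytes, in contrast, are loaded with messenger RNA, histones and lipid for the embryo, and the fertilised egg builds a shell of a vitelline layer, chitin and chondroitin proteoglycans. Parascaris is also known for programmed DNA elimination: germ cells carry the whole genome, while the precursors of somatic cells drop part of it in the early embryo. Genes in the dropped part, marked as eliminated in the table, can therefore be transcribed in the germline without ever being present in the adult soma.

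The libraries were of like depth, about 31350000 reads for testis and 31800000 for ovary as recovered from the spacing of low values, against 11900000 to 27600000 for the other tissues. Genes with at least 1 RPKM numbered 11091 in testis and 10451 in ovary. The defining markers fitted the labels. The 64 sperm markers summed to 39436 RPKM in testis and 106.5 in ovary, and the 26 oocyte and eggshell markers summed to 252.3 RPKM in testis and 38528 in ovary. Markers of other tissues were also present in both. The 4 vitellogenins, made in the intestine, summed to 58.8 RPKM in testis and 5.2 in ovary, with none at 0, against 2091 in intestine. The 25 muscle markers summed to 1011 RPKM in testis and 712.8 in ovary, with 8 and 7 of them at 0, against 6527 in carcass. The 187 cuticle genes summed to 2212 and 916.3, with 64 and 67 at 0, against 53897 in carcass. The 95 neuronal markers summed to 316.0 RPKM in testis and 759.6 in ovary, with 39 and 26 at 0, against 570.7 in embryo, 298.6 in intestine and 376.5 in carcass, so that the ovary had the highest sum of the 5 tissues. Their part in the differences below was not tested.

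Calls were made where the log2 difference reached 2, which is 4-fold, and the larger level was no less than 5 RPKM. By this rule 1740 genes were higher in testis, which is 11.6% of all genes, and 2391 were higher in ovary, which is 15.9%. Together these were 27.5% of genes, and 10896 were called in neither direction. The count favoured the ovary, but the size of the differences favoured the testis. A difference of at least 5 was found for 768 testis-higher and 183 ovary-higher genes, and one of at least 8 for 104 and 23. The median difference was 4.73 among the testis-higher genes and −2.69 among the ovary-higher ones. Of the genes called, 674 of the testis-higher (38.7%) were listed at 0 in ovary, against 165 of the ovary-higher (6.90%) listed at 0 in testis. Testis-higher genes held 62.4% of the summed RPKM of the testis and 0.561% of that of the ovary, while ovary-higher genes held 3.44% in testis and 47.8% in ovary. In a library of a whole tissue, more cells of one type and more RNA in each such cell cannot be told apart.

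The balance of the calls depended on how the libraries were scaled, because the median of all genes lay at −0.56 as deposited. Scaling by the median of ratios moved the median of expressed genes by 0.99 and gave 2256 testis-higher and 944 ovary-higher genes, so that the testis-higher share of calls was 70.5% in place of 42.1%. Upper-quartile scaling moved it by 0.64 and gave 2014 and 1268, a share of 61.4%. All 1740 testis-higher calls were kept under both, and the ovary-higher calls that remained were a subset of the deposited ones. Lists of genes below are therefore given with the median of all genes in view, and where a list's median is given and changed sign between scalings, this is said beside it. On the ovary side the calls crowd at the threshold: 438 genes lay between −1.9 and −2.1, while 58 lay between 1.9 and 2.1 on the testis side.

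**Figure D1:**
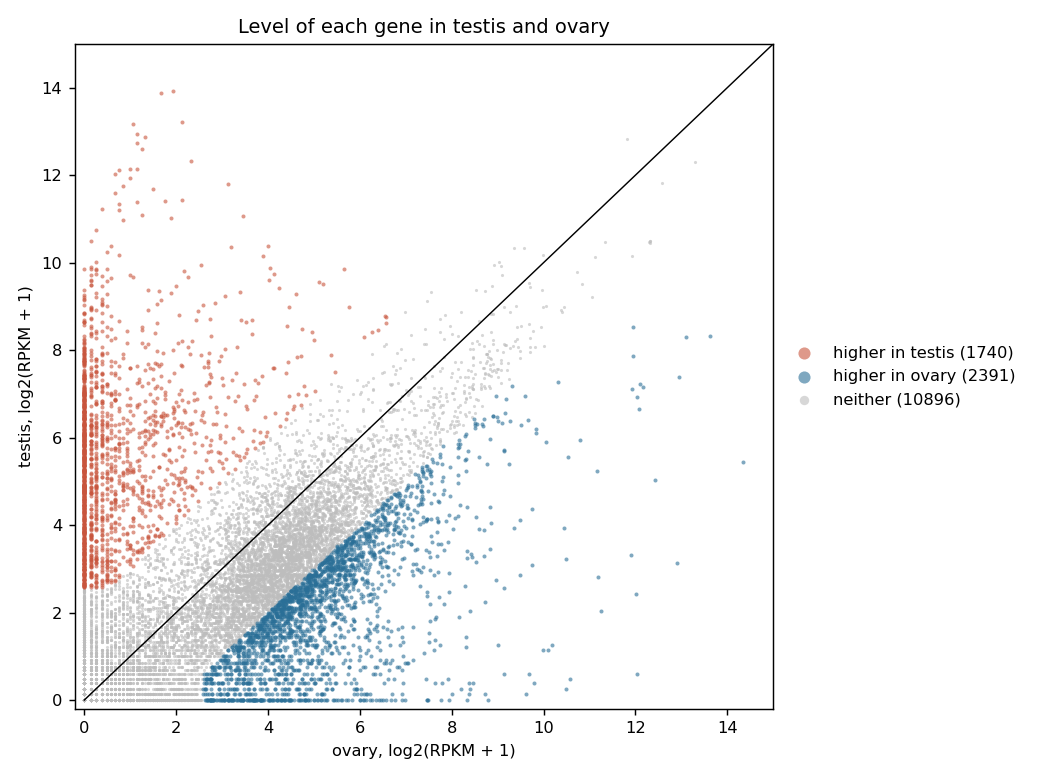
Level of each of the 15027 genes in testis (vertical axis) and ovary (horizontal axis), both as log2(RPKM + 1), with the 1740 testis-higher genes in red, the 2391 ovary-higher genes in blue and the 10896 others in grey. The line marks equal levels. Testis-higher genes crowd along the left edge, at or near 0 in ovary, whereas most ovary-higher genes lie just below the bulk of genes.

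The most abundant testis-higher genes have no known function. Of the 15 with the highest level in testis, 11 were annotated as hypothetical proteins, against 1 of the 15 highest ovary-higher genes, and 8 of the 15 lie on a single scaffold, PgR002. PgR002_g264 (scaffold PgR002, 4436724 to 4437834, plus strand, 2 exons) reached 15477 RPKM in testis, with a 95% Poisson interval of 15421 to 15534, and 2.8 in ovary, with an interval of 2.11 to 3.68. These intervals cover counting error only. PgR002_g266 (4439980 to 4440434, minus strand) stood at 15063 in testis and 2.2 in ovary. It lies wholly inside PgR002_g265, also annotated as hypothetical, which had 4525 in testis and 1.0 in ovary, so the reads of these 2 genes may not be separate. The remaining leaders of this scaffold were PgR002_g248 at 9227 RPKM in testis and 1.1 in ovary, PgR002_g182 at 7813 and 1.2, PgR002_g271 at 7464 and 1.5, PgR002_g067 at 5095 and 4.0, and PgR002_g181, inside PgR002_g182, at 4172 and 0.6.

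Most of this signal came from a stretch of 26 consecutive genes, PgR002_g246 to PgR002_g271, between positions 4186388 and 4564042. These genes were chosen after their values were seen. They summed to 58060 RPKM in testis, which is 11.6% of the summed value of all genes there, and to 331.2 in ovary. The stretch was not uniformly high in testis. Of its genes, 13 were testis-higher, 1 was ovary-higher and 12 were neither. A block of 5 testis-higher genes (PgR002_g248 to PgR002_g252) and a block of 6 (PgR002_g264 to PgR002_g269) flank 11 genes that had between 0 and 50.9 RPKM in testis. The genes between the blocks mostly carry names of widely used proteins, such as Prefoldin subunit 6 (PgR002_g254, 5.3 in testis and 7.2 in ovary), a chaperone that hands new chains to the chaperonin, and the transcriptional coactivator Yorkie (PgR002_g260, 7.6 in testis and 38.6 in ovary), the ovary-higher member. The last block also held a tau-tubulin kinase 2 (PgR002_g267, 35.4 in testis and 0.1 in ovary) and a pair annotated as oxysterol-binding protein 1, a sterol carrier (PgR002_g269, 192.4 and 1.0; PgR002_g268, 96.4 and 0.7). With the longest transcript in place of the most expressed one the difference of PgR002_g268 was 1.35, and with summed transcripts 1.93, both short of a call.

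Elsewhere, uncharacterised genes with a high testis level were PgR039_g080, inside another hypothetical gene (9536 RPKM in testis and 3.4 in ovary), PgR043_g079 (3895 and 1.0) and PgR076_g009 (3578 and 7.7). On the ovary side, PgB04_g090 (scaffold PgB04, 1230188 to 1232468, plus strand, 3 exons) had 0.5 RPKM in testis and 4226 in ovary, the lowest difference of all genes at −11.46. The embryo had 2.8, the intestine 21.0 and the carcass 10.3, so the transcript was abundant in ovary alone among the 5 tissues. In total 43.9% of the testis-higher genes had an uninformative annotation, against 24.6% of the ovary-higher and 29.4% of all genes.

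The machinery of the crawling sperm was nearly all testis-higher. Of 43 major sperm protein genes, 40 were testis-higher and 0 ovary-higher (median 6.01), and 12 of 13 MSP filament assembly factors were testis-higher and 0 ovary-higher (median 8.36), against 11.6% of all genes and a median of −0.56. MSP forms the filaments, and in Caenorhabditis elegans it is also the signal from sperm that resumes oocyte meiosis. PgE404_g002, a major sperm protein isoform beta, had 4425 RPKM in testis and 0.7 in ovary, and lies inside PgE404_g001 of the same annotation. MSP-domain protein 1 was represented by neighbouring genes, of which PgR011_g011 had 2375 in testis and 0.7 in ovary and PgR011_g013 had 633.3 and 0.2. Together the MSP genes made up 26077 RPKM of the testis.

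Among the assembly factors, MFP1 slows and MFP2 speeds filament growth in Ascaris sperm, and MFP3 binds the filament bundles. MFP1-beta (PgR166_g003) had 2738 RPKM in testis and 2.4 in ovary, an MFP2 (PgR024_g052) had 2149 and 10, a second MFP2 (PgR006_g147) had 761.2 and 0.4, and MFP3 (PgR016_g083) had 811.1 and 1.1. Sperm-specific class P protein 16 (PgR046_g038) had 441.0 in testis and 0.5 in ovary, and sperm-specific protein ZC168.6 (PgR054_g047) had 299.7 and 0.5. Of 30 such other genes with sperm in the name, 15 were testis-higher and 2 ovary-higher (median 2.49). Motile sperm domain-containing protein 2 (PgR015_g001), whose name comes from an MSP-like domain also found in somatic proteins, was one of the ovary-higher ones, with 13.9 RPKM in testis and 117.6 in ovary, and it stood at 113.5 in embryo.

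Ferlins fuse vesicles with the cell membrane, and C. elegans fer-1 is needed for the fusion of membranous organelles when sperm become motile. All 9 ferlin genes lie in eliminated DNA, and 8 were testis-higher and 0 ovary-higher (median 4.12). Their levels were modest: PgE022_g007, annotated as sperm vesicle fusion protein fer-1, had 48.7 RPKM in testis and was listed at 0 in ovary, PgE032_g003 had 28.7 in testis and 0 in ovary, and a myoferlin (PgE106_g001) had 30.4 and 0.8. Vesicle-associated membrane protein 3 (PgR091_g029), a SNARE that brings vesicle and target membrane together, was far more abundant, with 797.5 RPKM in testis and 0.5 in ovary. Syntaxin-18 (PgB05_g029), a SNARE of the endoplasmic reticulum, had 269.2 in testis and 3.8 in ovary, while syntaxin-3 (PgB05_g011), of the cell surface, had 8.8 and 64.7. Of all 15 SNARE genes, 2 were testis-higher and 3 ovary-higher, or 2 and 0 under median-of-ratios scaling.

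Protein kinases and phosphatases formed another large named block of the testis. In C. elegans several sperm proteins of these kinds are known, among them the Fer-related tyrosine kinase SPE-8, the casein kinase 1 SPE-6 and the PP1 phosphatases GSP-3 and GSP-4. Of 74 tyrosine protein kinases, 42 were testis-higher and 2 ovary-higher (median 3.65), and of 48 tau-tubulin and casein kinases I, 39 were testis-higher and 1 ovary-higher (median 4.54). Protein tyrosine phosphatases counted 41 testis-higher and 6 ovary-higher of 74 (median 3.93), and PP1-type phosphatases 24 and 4 of 50 (median 1.05). The remaining serine/threonine protein kinases were less one-sided, with 42 testis-higher and 16 ovary-higher of 142 and a median of 0.12.

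Tyrosine-protein kinase Fer (PgR059_g038, scaffold PgR059, 519027 to 520186, plus strand, 3 exons) had 1036 RPKM in testis (1023 to 1050.1) and 0.2 in ovary (0.050 to 0.471). A second gene of that name (PgR031_g050) had 625.8 in testis and 0.4 in ovary, and kin-31 (PgR029_g053), another member of the Fer group, had 372.4 and 0.1. A relative of the Drosophila kinase Fps85D (PgB21_g045), in eliminated DNA, stood at 641.7 in testis and 9.5 in ovary. Ryk (PgB01_g040), a receptor for Wnt ligands, ran the other way with 9.9 in testis and 51.8 in ovary. Its difference was −1.23 under median-of-ratios scaling, at which 0 genes of this list were ovary-higher. Eliminated genes gave 12 of the 42 testis-higher members of this list.

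Among the tau-tubulin kinases, PgR043_g077 had 347.9 RPKM in testis and 0.3 in ovary, but it encloses the far more abundant PgR043_g079 described above, and reads of that gene may be counted here. PgB04_g119 had 245.3 in testis and 0.3 in ovary, and PgE232_g001, in eliminated DNA, had 160.2 in testis and was listed at 0 in ovary. The single ovary-higher member, PgR026_g084, had 0.4 in testis and 57.7 in ovary. For the phosphatases, Lar-like protein (PgR129_g011) had 484.1 in testis and 1.6 in ovary, non-receptor type 12 (PgB01_g216) had 250.5 in testis and 0 in ovary, and PP1-2 (PgR129_g012), the neighbour of the Lar-like gene, had 222.5 and 0.2. Ovary-higher phosphatase genes included a PP1-alpha catalytic subunit (PgR038X_g016, 17.0 in testis and 202.6 in ovary) and PP1 regulatory subunit 3C (PgR003_g117, 6.6 and 206.2), of a family that directs PP1 to glycogen.

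**Figure D2:**
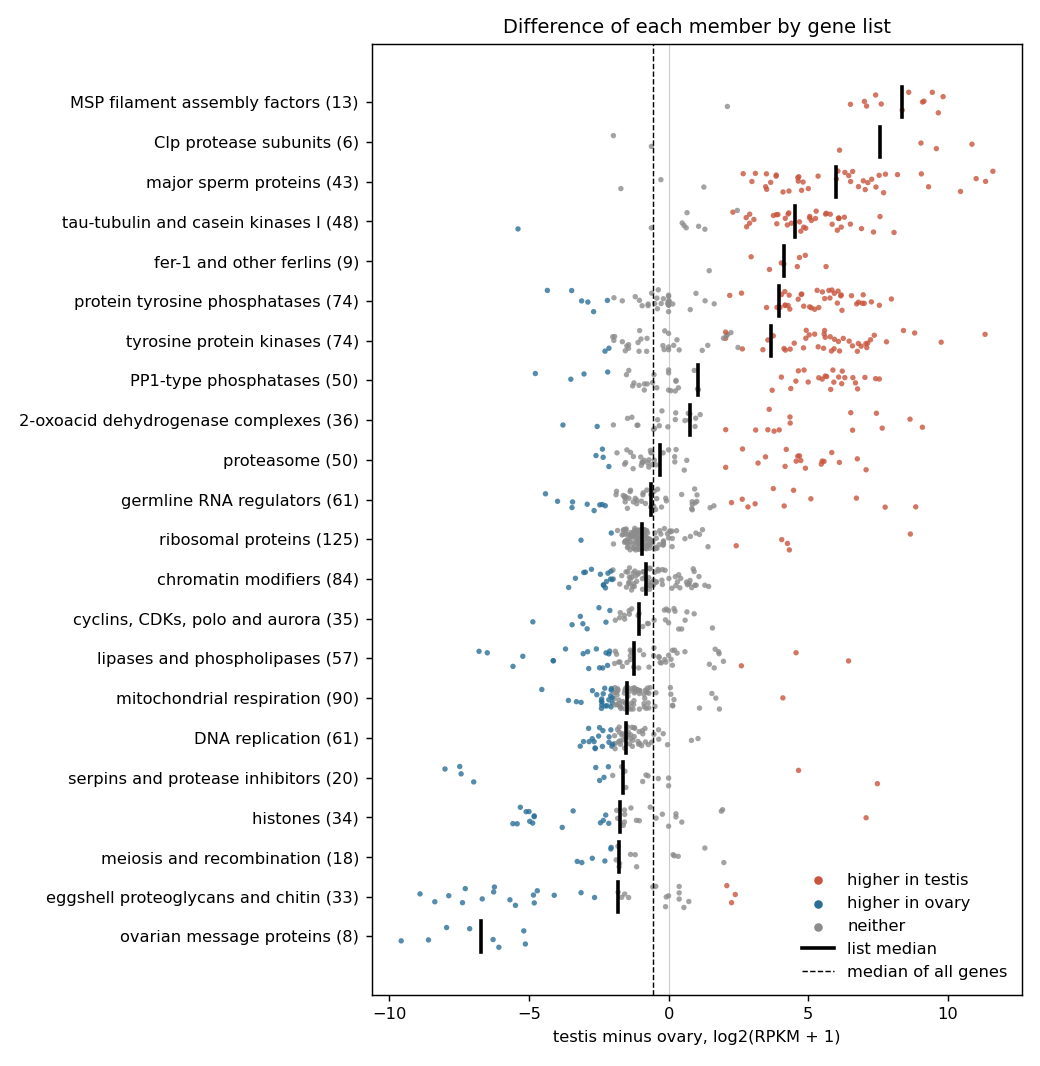
Difference (testis minus ovary, log2(RPKM + 1)) of each member of 22 gene lists, with the number of members in brackets, the list median as a bar and the median of all genes (−0.56) as a dashed line. Red points are testis-higher, blue points ovary-higher and grey points neither. The sperm and kinase lists lie to the right and the eggshell, meiosis and histone lists to the left. The medians of the proteasome, germline RNA, ribosomal and chromatin lists, between −0.32 and −0.96 here, turn positive with median-of-ratios scaling.

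The testis also held its own versions of genes that every cell uses. For the proteasome, which degrades ubiquitin-tagged proteins, 18 of 50 genes were testis-higher and 4 ovary-higher, with a median of −0.32 that turned to 0.72 under median-of-ratios scaling, where the counts were 18 and 0. Of those 50 genes 15 lie in eliminated DNA, and all 15 were testis-higher, against 44.8% of all eliminated genes. 26S regulatory subunit 12 (PgB17_g067) had 133.2 RPKM in testis and was listed at 0 in ovary, regulatory subunit 4 (PgE045_g002), a ubiquitin receptor, had 89 and 0.3, and activator subunit 4 (PgE152_g001) had 107.0 in testis and 0 in ovary. Of the 35 retained proteasome genes, 3 were testis-higher and 4 ovary-higher. Near-equal was regulatory subunit 1 (PgR142_g006), the scaffold of the lid and base, at 168.6 in testis and 168.7 in ovary, and ovary-higher as deposited was alpha type-7 (PgR027_g120), of the core ring, at 22.7 in testis and 121.4 in ovary, with a difference of −1.29 under median-of-ratios scaling.

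In translation and splicing too, the testis-higher genes lay mostly in eliminated DNA, where 44.8% of all genes were testis-higher. Of 83 translation factors, 11 (13.3%) were testis-higher and 7 (8.43%) ovary-higher (median −0.82), against 11.6% and 15.9% of all genes. Under median-of-ratios scaling the counts were 13 and 0, and the median was 0.18. As deposited, the 11 testis-higher ones were all among the 18 in eliminated DNA. Initiation factor 3 subunit B (PgB32_g009), part of the complex that prepares the small ribosomal subunit, had 79.9 RPKM in testis and 0.2 in ovary, subunit D (PgE004_g004) had 68.3 and 0.1, and subunit 2 of initiation factor 2 (PgE006_g001), which delivers the initiator tRNA, had 38.8 in testis and 0 in ovary. Subunit L of initiation factor 3 (PgR014X_g045) was ovary-higher as deposited, with 13.8 in testis and 106.6 in ovary. The ovary-higher cap-binding factor eIF4E-4 (PgR008_g136, 26.7 in testis and 127.5 in ovary) and the eIF4E transporter (PgR043_g057, 67.2 and 314.4), a repressor that holds eIF4E on silent messages, faced a testis-higher eIF4E-3 (PgB39_g005, 34.4 and 0.2). The differences of these 3 ovary-higher genes shrank to between −1.12 and −1.80 under median-of-ratios scaling.

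Of 106 splicing factors, 11 were testis-higher and 7 ovary-higher (median −0.60), but 13 and 0 under median-of-ratios scaling, where the median was 0.38. All 10 in eliminated DNA were testis-higher. A gene annotated as putative splicing arginine serine-rich 7 (PgE082_g001), of the family that guides the choice of splice sites, reached 1322 RPKM in testis and 8.1 in ovary. The retained exception was splicing factor 3A subunit 2 (PgR003_g222), a part of the U2 particle, with 216.0 in testis and 0.2 in ovary; its neighbours PgR003_g221 (12.7 in testis and 93.3 in ovary) and PgR003_g220 (7.6 and 40.6) carry the same annotation and were ovary-higher as deposited, with −1.72 and −1.24 under median-of-ratios scaling. Ribosomal proteins stayed mostly uncalled, with 5 testis-higher and 2 ovary-higher of 125 (median −0.96, and 0.12 under median-of-ratios scaling). Acidic ribosomal protein P0 (PgR012_g118), the base of the stalk that recruits elongation factors, was the largest exception, at 401.5 RPKM in testis and 0 in ovary, which is at least 6533-fold higher when 3 reads are put in place of 0.

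Enzymes of mitochondria and of carbon metabolism followed. Of 6 Clp protease subunits, which unfold and feed proteins to a mitochondrial protease, 4 were testis-higher and 0 ovary-higher (median 7.58). The ATP-binding subunit clpX had 842.4 RPKM in testis and 0.1 in ovary at PgR052_g016, which lies inside PgR052_g015 of the same name, 522.5 and 0 at PgR012_g108, and 283.9 and 3.1 at PgR052_g014. A further clpX gene, PgB12X_g030, had 15.4 in testis and 63.5 in ovary and was not called. Of 36 genes of the 2-oxoacid dehydrogenase complexes, which link sugar and branched-chain amino acid breakdown to the citric acid cycle, 14 were testis-higher and 2 ovary-higher (median 0.75). The E1 alpha subunit of pyruvate dehydrogenase (PgE097_g003) had 900.1 RPKM in testis and 3.5 in ovary, the acetyltransferase (PgR024_g099) had 172.4 in testis and 0 in ovary, and protein X (PgE718_g001), which anchors the E3 enzyme, had 94.9 in testis and 0 in ovary. E1 beta was split between genes, with PgR033_g019 at 704.3 in testis and 0.3 in ovary and PgR085_g006 at 26.4 and 160.1. The second of these had its highest level in carcass, 760.3.

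Genes for the breakdown of branched-chain amino acids and of propionate were also found in testis. Branched-chain aminotransferase (PgB36X_g004), the first step, had 487.3 RPKM in testis and 0.1 in ovary, and 2-oxoisovalerate dehydrogenase subunit alpha (PgR067_g024), the second, had 398.0 in testis and 0 in ovary. Propionyl-CoA carboxylase beta chain (PgE039_g005), which begins the conversion of propionate to succinate, had 504.5 and 53.1, methylmalonyl-CoA epimerase (PgE067_g001) had 333.1 and 0.1, and methylmalonyl-CoA mutase (PgE073_g002) had 208.8 and 5.5. These 3 lie in eliminated DNA. Of 21 genes of that route, 8 were testis-higher and 4 ovary-higher, with a median of −0.37 that turned to 0.72 under median-of-ratios scaling. Retained genes of the route were called in both directions or in neither. Methylmalonic aciduria type A protein (PgR081_g014), a chaperone of the mutase in other animals, had 353.2 in testis and 83.3 in ovary, the gene annotated as methylmalonyl (PgR084X_g001) had 123.6 in testis and 774.4 in ovary, and propionyl-CoA carboxylase alpha chain (PgR002_g232) had 647.7 and 424.0.

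Sugar and storage genes split by gene. The key glycolytic enzyme 6-phosphofructokinase (PgR003_g204) had 411.1 RPKM in testis and 4.4 in ovary, while a muscle-type pyruvate kinase (PgB12X_g013) had 2.8 and 35.7. A phosphoenolpyruvate carboxykinase (PgR026_g022) had 282.0 in testis and 1.6 in ovary. A more abundant gene annotated as phosphoenolpyruvate carboxykinase (PgR044_g051) had 738.0 and 820.6 and was not called. Over the list of 56 glycolysis and gluconeogenesis genes, 7 were testis-higher and 12 ovary-higher, or 7 and 4 under median-of-ratios scaling, where the median turned from −0.68 to 0.32. Trehalase cleaves the blood sugar of many invertebrates, and its gene PgB04_g176 had 244.4 in testis and 0 in ovary, PgB04_g178 had 135.0 and 0.1, and PgR080_g006 had 136.5 and 354.1. Aquaporin-3 (PgR024_g114), a channel for water and glycerol, had 209.6 RPKM in testis and 0 in ovary, and solute carrier 40 member 1 (PgE023_g003), of the family of the iron exporter ferroportin, had 198.5 and 0. Of 267 transporter genes, 37 (13.9%) were testis-higher, 18 of them in eliminated DNA, and 41 (15.4%) were ovary-higher. The shares of all genes were close to these, at 11.6% and 15.9%. Under median-of-ratios scaling the transporter counts were 50 and 20, and the median turned from −0.28 to 0.02.

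A few regulators marked the testis as well. The gene annotated as fog-3 (PgR090_g030), which in C. elegans commits germ cells to become sperm, had 231.0 RPKM in testis and 6.9 in ovary. DAZ protein 1 (PgE226_g001), of a family of germ cell RNA-binding proteins, had 104.5 in testis and 0 in ovary, and a tudor domain protein (PgB05_g131) had 504.9 and 0.1. The zinc finger gene PgE087_g001, in eliminated DNA, had 410.1 in testis and 0 in ovary, and its neighbours PgE087_g002 and PgE087_g003 of the same annotation had 185.2 and 321.5 in testis and 0 and 0.4 in ovary. Homeobox genes were called in both directions, with 7 of 69 (10.1%) testis-higher and 8 (11.6%) ovary-higher, against 11.6% and 15.9% of all genes. Under median-of-ratios scaling the homeobox counts were 8 and 6. Of the homeobox genes, ceh-18 (PgE052_g002), which in C. elegans acts in the gonad sheath to restrain oocyte meiosis, had 67.1 in testis and 0 in ovary. A histone H2A (PgR059_g050), at 240.6 in testis and 0.8 in ovary, was the one testis-higher histone of 34.

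Some testis-higher genes had names better known from skin or muscle. Cuticle collagen 99 (PgR116_g013), of the family that builds the worm's outer cuticle, had 662.8 RPKM in testis and 1.6 in ovary, and its neighbour PgR116_g014 had 417.3 and 0.1. In carcass, where most cuticle is made, these genes stood at 29.7 and 16.8. Cuticle collagen 34 (PgR105_g020) ran the other way, with 4.5 in testis, 243.8 in ovary and 4437 in carcass. Over 187 cuticle genes 11 (5.88%) were testis-higher and 15 (8.02%) ovary-higher, with a median of 0.00, or 13 and 12 under median-of-ratios scaling. Both deposited shares were below the 11.6% and 15.9% of all genes. Muscle LIM protein Mlp84B (PgR030_g029) had 397.3 in testis, 0.3 in ovary and 25.1 in carcass. It was outside a list of 100 muscle genes, of which 4 (4%) were testis-higher and 15 (15%) ovary-higher. Under median-of-ratios scaling the muscle counts were 11 and 3.

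Genes of the eggshell were prominent in the ovary. Of 33 eggshell proteoglycan and chitin genes, 3 were testis-higher and 16 ovary-higher (median −1.81), and all 8 ovarian message proteins, a set named from abundant messages of nematode ovaries, were ovary-higher (median −6.70). Chondroitin proteoglycans form the layer of the shell under the chitin in C. elegans. A cluster on scaffold PgR113 held 3 genes annotated as chondroitin proteoglycan 3: PgR113_g007 (101326 to 105238, minus strand, 5 exons) had 31.9 RPKM in testis (30.0 to 33.9) and 5465 in ovary (5440.1 to 5490), PgR113_g009 had 6.0 and 2311, and PgR113_g008, inside PgR113_g007, had 7.5 and 864.6. The astacin-type protease nas-5 (PgR113_g010) next to them had 10 in testis and 453.1 in ovary. Chondroitin proteoglycan-2 (PgR008_g092) had 8.3 and 1441, and chondroitin proteoglycan 4 (PgR033_g009) had 0.1 RPKM in testis and 256.0 in ovary. The exceptions were PgR176_g007 and PgR176_g008, 2 chondroitin proteoglycan 2 genes that were testis-higher with 65.1 and 26.7 in testis and 14.6 and 4.3 in ovary.

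Embryo levels differed among the ovary-higher genes annotated as chondroitin proteoglycan or zonadhesin. PgR113_g007 kept 1550 RPKM in embryo, while chondroitin proteoglycan-2 (PgR008_g092) stood at 3.4 there. Zonadhesins, large surface proteins that in mammals let sperm bind the egg coat, included a run of 4 ovary-higher genes on scaffold PgR004. PgR004_g028 had 59 RPKM in testis, 1066 in ovary and 11.5 in embryo, and PgR004_g030 had 76.7 in testis, 730.8 in ovary and 0.7 in embryo. A zonadhesin on another scaffold, PgR030_g100, was testis-higher with 117.1 in testis and 2.4 in ovary, but its level in intestine was 2355.

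Secreted inhibitors and enzymes were a further ovary group. Protease inhibitors counted 2 testis-higher and 8 ovary-higher of 20 (median −1.62), or 2 and 4 under median-of-ratios scaling. Serine proteases counted 1 and 7 of 14 (median −1.70), or 2 and 5 under that scaling. Chymotrypsin/elastase isoinhibitors, first known from Ascaris, were represented by PgR070_g009 with 0.3 RPKM in testis and 332.3 in ovary and by PgR373_g001 with 0 and 124.8, and a trypsin inhibitor (PgR160_g003) had 0.4 and 239.7. Of the 2 testis-higher inhibitors, the one with the larger difference was serpin b3 (PgR010_g138), with 567.6 in testis and 2.2 in ovary. Transthyretin-like protein 15 (PgR029_g111), of a secreted family large in nematodes, had 3.1 in testis and 335.4 in ovary. Extracellular superoxide dismutase (PgR042_g025), which removes superoxide outside cells, had 4.9 and 562.6, and Complement factor H (PgR005X_g025) had 1.7 and 315.0.

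Among the called genes for chromosomes most were ovary-higher in the deposited values. Apart from the histones, few of these calls held under median-of-ratios scaling. Over all genes 11.6% were testis-higher and 15.9% ovary-higher. Of 34 histone genes, 1 was testis-higher and 15 were ovary-higher (median −1.72). Histone H2B 2 (PgR042_g095) had 165.4 RPKM in testis, 7921 in ovary and 9535 in embryo, histone H4 (PgR042_g097) had 120.7, 4170 and 6329 in those tissues, and histone H3 (PgR012_g127) had 149.6, 4384 and 6206. These core histones package DNA as it is replicated. Under median-of-ratios scaling the histone counts were 2 testis-higher and 11 ovary-higher. For DNA replication 0 of 61 genes were testis-higher and 17 ovary-higher (median −1.53), but 1 and 2 under median-of-ratios scaling. Origin recognition complex subunit 1 (PgR025_g033), which marks where replication starts, had 7.2 in testis and 72.4 in ovary, and the large subunit of ribonucleotide reductase (PgB05_g109), which makes deoxynucleotides, had 9.3 and 73.1.

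Meiosis and recombination genes were testis-higher in 0 of 18 cases and ovary-higher in 6 (median −1.76), but in 2 and 2 under median-of-ratios scaling. Pachytene checkpoint protein 2 (PgR085_g009), which remodels the synapsed chromosome axis, had 4.6 RPKM in testis and 53.0 in ovary. Cyclins and cell-cycle kinases had 0 testis-higher and 8 ovary-higher of 35 (median −1.05), or 1 and 4 under median-of-ratios scaling. Polo kinase (PgB02X_g160), a driver of M phase, had 1.2 in testis and 62.8 in ovary, cdc-25.1 (PgB03_g036), the phosphatase that switches on Cdk1, had 3.5 and 39.2, and cyclin-D1 (PgR106_g002) had 6.3, 54.1 and, in embryo, 121.9. Aurora kinase B (PgR045_g024) had 84.6 and 44.4. An inner centromere protein gene (PgB06_g100), of the complex that holds aurora B, had 62.5 in testis and 0 in ovary and was the one testis-higher gene among 75 of cohesin, condensin and the kinetochore. That list had 9 ovary-higher genes (median −0.56), but 6 testis-higher and 3 ovary-higher under median-of-ratios scaling, where the median was 0.37.

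The list of chromatin modifiers had 0 testis-higher and 14 (16.7%) ovary-higher of 84 (median −0.81), against 11.6% and 15.9% of all genes. Under median-of-ratios scaling the counts were 2 and 3, and the median was 0.20. This list did not take in the chromatin remodeller isw-1, which was called in both directions. Its gene PgR054_g057 had 106.3 RPKM in testis and 1.2 in ovary, and PgE323_g002 had 4.2 and 66.4. The Polycomb RING finger protein 2 (PgR058_g001), of a complex that silences genes, had 5.0 RPKM in testis and 70.6 in ovary, and the acetyltransferase KAT2B (PgR005X_g122) had 6.8 and 51.9. Of 17 Argonaute genes, which carry small RNAs, 0 were testis-higher and 3 (17.6%) ovary-higher (median −1.05), and 0 were called under median-of-ratios scaling. WAGO-3 (PgR068_g024) had 7.4 in testis and 54.3 in ovary, while CSR-1 (PgR178_g009), which in C. elegans targets germline-expressed genes, had 75.8 and 66.7. Both tissues thus held Argonaute transcripts.

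RNA regulators were called in both directions. Of 61, 11 (18.0%) were testis-higher and 9 (14.8%) ovary-higher, against 11.6% and 15.9% of all genes. Their median was −0.63, and 0.43 under median-of-ratios scaling. The translational repressor gld-1, which acts in oogenesis in C. elegans, was annotated at several genes. Of these, PgR043_g016 had 20.4 RPKM in testis and 452.4 in ovary, PgR075_g039 had 16.9 and 112.6, and PgR031_g009 had 214.4 and 0. The eliminated PgE125_g001 had 33.1 and 0. Cytoplasmic polyadenylation element-binding proteins switch stored messages on and off. Type 3 (PgE096_g001, in eliminated DNA) had 11.2 in testis and 131.1 in ovary, and type 1 (PgR024_g110) had 32.3 and 0.5. Tristetraprolin (PgR011_g163), a zinc finger family that includes the C. elegans oocyte and embryo regulators, was listed at 0 in testis and had 245.1 in ovary, at least 4316-fold higher there with 3 reads in place of 0. Fem-3 mRNA-binding factor 2 (PgE079_g002), which in C. elegans keeps germline stem cells and permits the switch to oocytes, had 7.4 and 45.3.

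Of 60 fatty acid and lipid synthesis genes, 4 were testis-higher and 18 ovary-higher (median −1.19), but 5 and 5 under median-of-ratios scaling. Lipases and phospholipases had 3 testis-higher and 17 ovary-higher of 57 (median −1.25), or 6 and 8 under that scaling. Fatty acid synthase (PgB02X_g186) had 0.9 RPKM in testis and 102.2 in ovary, and acetyl-coenzyme A synthetase (PgB26_g005), which activates acetate, had 6.2 and 720.6. A row of 4 lipase family genes on scaffold PgR031 was ovary-higher throughout. PgR031_g076 had 1.4 in testis and 214.7 in ovary, PgR031_g079 had 0.1 and 120.2, PgR031_g077 had 0.7 and 79.7, and PgR031_g078 had 0 and 36.2. A low-density lipoprotein receptor-related protein 2 (PgR083X_g033), of the receptor family through which nematode oocytes take up yolk, had 0.8 in testis and 129.4 in ovary. On the testis side stood a calcium-independent phospholipase A2 (PgB13_g046, 129.3 and 0.5) and the phosphatidylinositol transfer protein beta isoform (PgB13_g032, 572.2 and 0.3), which carries lipids between membranes.

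Mitochondrial respiration had 1 testis-higher and 22 ovary-higher of 90 genes (median −1.48), but 5 and 4 under median-of-ratios scaling. Cytochrome c1 (PgR027_g078), of complex III, had 11.4 RPKM in testis and 121.1 in ovary, and the complex I subunit annotated as iron-sulfur protein 8 (PgR007_g121) had 117.7 and 578.0. The flavoprotein subunit of succinate dehydrogenase (PgR036_g098) was the testis-higher one, with 157.4 and 8.3. Some small heat shock proteins were abundant in ovary. OV25-1 at PgR016_g064 had 233.3 in testis and 3965 in ovary, and heat shock protein 27 (PgR019_g045) had 83.5 and 807.5. Of 89 chaperone genes, 3 (3.37%) were testis-higher and 12 (13.5%) ovary-higher, both below the 11.6% and 15.9% of all genes. Under median-of-ratios scaling the chaperone counts were 5 and 5, and the median turned from −0.93 to 0.01.

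Most cytoskeletal genes were called in neither direction. Of 36 tubulins, 2 (5.56%) were testis-higher and 2 (5.56%) ovary-higher. Actins and actin regulators counted 5 (7.25%) and 9 (13.0%) of 69, and kinesins and dyneins 7 (11.3%) and 9 (14.5%) of 62. The shares of all genes were 11.6% and 15.9%. Under median-of-ratios scaling the counts were 3 and 2, 9 and 4, and 12 and 2 in that order. Single genes differed strongly. An alpha-2 tubulin (PgE040_g001, in eliminated DNA) had 19.8 RPKM in testis and 860.3 in ovary, a tubulin alpha-3 (PgB02X_g211) had 0.5 and 85.8, and a tubulin beta-1 (PgB10_g062) had 86.4 and 0.8. A formin (PgR049_g028), which nucleates actin cables, had 0.7 and 53.4, and a subunit of the actin-branching Arp2/3 complex (PgR008_g157) had 31.2 and 219.4. For the myosins, myosin-4 (PgR016_g050) had 5.7 in testis, 498.2 in ovary and 2.3 in carcass, so this gene with a muscle name was near 0 in the tissue that holds the body muscle. Myosin-VI (PgE099_g001), a motor that in C. elegans sorts contents into budding spermatids, had 245.2 in testis and 5.6 in ovary.

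Neuronal genes and ion channels were called for the ovary at about the rate of all genes, 15.9%. Of 154 neuronal genes, 5 were testis-higher and 26 (16.9%) ovary-higher (median −0.39; 0.00 under median-of-ratios scaling, with counts of 6 and 16), and the neuronal markers had their highest sum in ovary, as given above. Synaptotagmin-1 (PgR236_g001), a calcium sensor of vesicle release, had 1.2 RPKM in testis and 196.0 in ovary, and stood at 91.4 in embryo and 50.6 in intestine. FMRFamide-like peptide 8 (PgR013_g104) had 0.4 in testis and 172.3 in ovary. Ion channels had 11 testis-higher and 19 (13.1%) ovary-higher genes of 145, or 15 and 14 under median-of-ratios scaling. Among them, the potassium channel regulator unc-93 (PgR017X_g089) had 0.3 and 197.6, and a glutamate-gated chloride channel (PgR004_g062), of the family hit by ivermectin, had 0.1 and 60.3. Innexin-3 forms gap junctions and was near equal, with PgR004_g203 at 109.2 and 94.7, whereas innexin unc-7 (PgR023_g041) had 35.2 and 183.9. Patched genes, whose products resemble the Hedgehog receptor, made up most of the ovary-higher members of a hedgehog-related and patched list. In that list 2 of 74 genes were testis-higher and 16 (21.6%) ovary-higher (median −0.71), or 6 and 10 under median-of-ratios scaling. Patched-related protein 9 (PgE131_g001), in eliminated DNA, had 3.6 in testis and 182.7 in ovary, and patched domain-containing protein 3 (PgR055_g006) had 4.5 and 174.6.

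Transcription factors of the ovary included nuclear hormone receptors, of which 3 of 55 were testis-higher and 15 ovary-higher (median −0.77), or 4 and 4 under median-of-ratios scaling. Receptor nhr-1 (PgR002_g180) had 0.3 RPKM in testis and 54.6 in ovary, while nhr-121 was split, with PgR012_g171 at 70.1 and 0.7 and PgB01_g139 at 4.2 and 28.9. A homeobox gene (PgR014X_g016) had 1.7 and 120.6, and Eyes absent 4 (PgR056X_g006), a phosphatase and coactivator, was listed at 0 in testis with 120.6 in ovary. Of 138 zinc finger genes, 14 (10.1%) were testis-higher and 23 (16.7%) ovary-higher, close to the 11.6% and 15.9% of all genes. Under median-of-ratios scaling the zinc finger counts were 17 and 10. A transposable element gene, the Tf2 protein PgE295_g001 in eliminated DNA, had 25 in testis, 225.1 in ovary and 254.1 in embryo, while LINE-1 reverse transcriptase PgB03_g168 had 32.5 in testis and 0.2 in ovary.

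Several annotation texts thus occurred on both sides. Among 2014 texts shared by at least 2 genes, 120 (5.96%) had both a testis-higher and an ovary-higher gene, 304 had testis-higher genes alone, 559 had ovary-higher genes alone and 1031 had neither. The pairs that follow were chosen for their opposite differences. Acetyl-CoA acetyltransferase A, an enzyme of fatty acid breakdown and ketone formation, had 89.5 RPKM in testis and 0 in ovary at PgR011_g002, and 0.8 in testis and 125.7 in ovary at PgR127_g001. The first of these stood at 86.4 in intestine. Regulator of microtubule dynamics protein 1 had 288.6 in testis and 0 in ovary at PgR026_g038, and 1.0 and 122.3 at PgR024_g079. Arginase, which splits arginine to urea and ornithine, had 48.1 and 0 at PgR004_g115, and 0 and 43.6 at PgR005X_g199. Tyrosine-protein phosphatase non-receptor type 9 ran against the usual direction of eliminated DNA, with 176.1 and 8.9 at the retained PgR004_g097 and 17.3 and 369.4 at the eliminated PgE029_g001. The chromatin remodeller isw-1 had 106.3 and 1.2 at PgR054_g057, and 4.2 and 66.4 at the eliminated PgE323_g002. Of the genes under the 120 texts, 46 of 234 testis-higher and 9 of 196 ovary-higher members were eliminated.

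**Figure D3:**
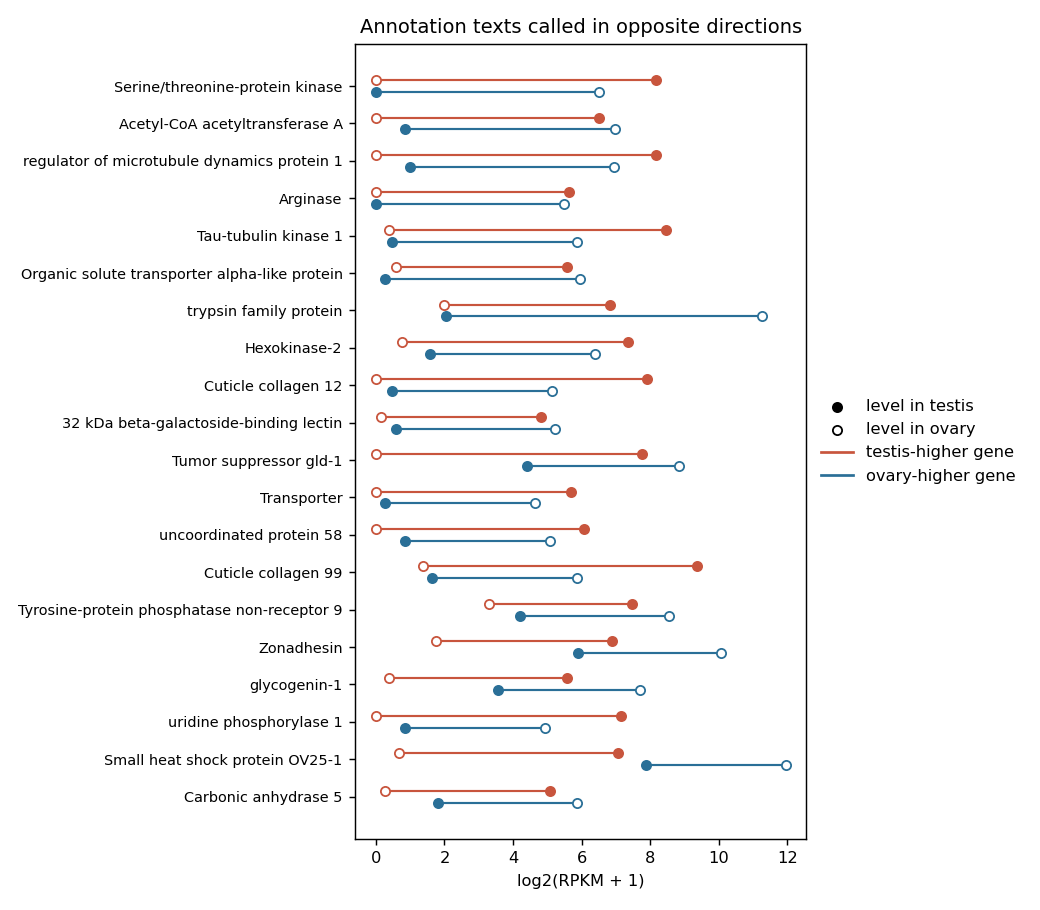
Levels, as log2(RPKM + 1), of the 20 annotation texts whose testis-higher gene (red) and ovary-higher gene (blue) differ most in opposite directions, with filled points for testis and open points for ovary. The pairs were chosen by these values. Some testis-higher genes drawn here were more abundant in intestine. Among them are Carbonic anhydrase 5 (PgB03_g005), with 33.1 RPKM in testis and 994.4 in intestine, and the Zonadhesin PgR030_g100 described above. In most, each gene lies below 2 in one germline tissue and above 4 in the other on this scale.

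The position of a gene in eliminated or retained DNA went with the direction of its call. Of 985 eliminated genes, 441 (44.8%) were testis-higher and 71 (7.21%) ovary-higher (median 1.63). Of 14042 retained genes, 1299 (9.25%) were testis-higher and 2320 (16.5%) ovary-higher, with a median of −0.65 that turned to 0.00 under median-of-ratios scaling, at which eliminated genes gave 510 and 36. Eliminated testis-higher genes had a median of 42.4 RPKM in testis and 0.2 in ovary, and retained ones 46.3 and 0.2, so the shares called differed while the median levels of testis-higher genes were close. The 71 eliminated ovary-higher genes had a median of 3.6 in testis, 38.3 in ovary and 19.2 in embryo.

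Many eliminated testis-higher genes had a retained relative by name. Of the 441, 259 carried an informative annotation, under 150 texts, and 117 of those texts also named a retained gene. The most expressed retained gene of each text was testis-higher in 38, ovary-higher in 16 and neither in 63 cases, with a median of 27.2 RPKM in testis and 15 in ovary. The eliminated genes of these texts had a median of 49.6 in testis and 0.3 in ovary. Runs of 6 neighbouring eliminated testis-higher genes were found on scaffolds PgE021 and PgE081. The ADP,ATP carrier PgE081_g004, which exchanges nucleotides across the inner mitochondrial membrane, had 397.8 in testis and 10.5 in ovary, and phosphoribosyl pyrophosphate synthase-associated protein 2 (PgE081_g002) had 77.6 and 0.6.

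Retained genes on scaffolds whose name ends in X were seldom testis-higher. Of 2849 such genes, 70 (2.46%) were testis-higher and 651 (22.9%) ovary-higher (median −1.08), against 1229 (10.98%) and 1669 (14.9%) of the 11193 on other retained scaffolds (median −0.50). Under median-of-ratios scaling the counts were 118 and 229 for the X-named and 1628 and 679 for the others. The median level was 2.8 RPKM in testis and 9.5 in ovary for X-named genes, against 4.7 and 7.2 for the others. At 100 RPKM or more in testis stood 1.16% of the X-named and 4.99% of the other genes. What the X stands for is not stated in those sources.

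**Figure D4:**
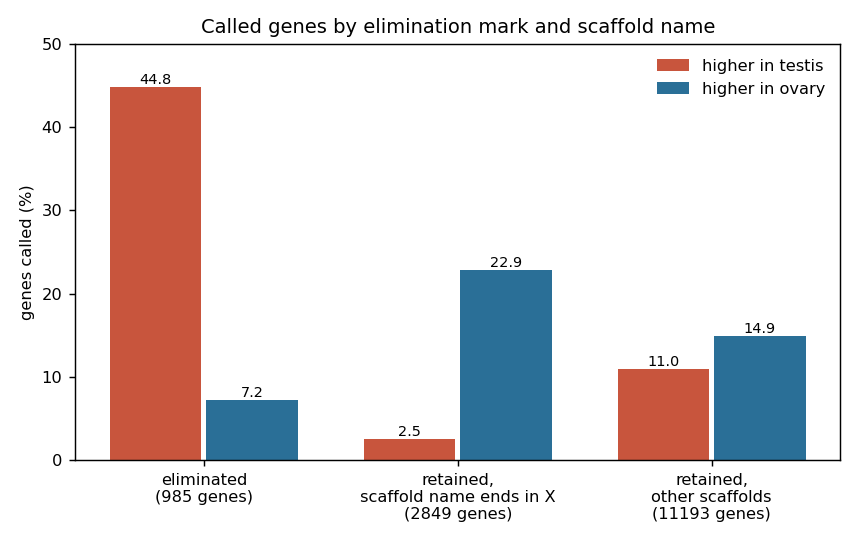
Share of genes (per cent) called higher in testis (red) and in ovary (blue) among 985 eliminated genes, 2849 retained genes on scaffolds named with a final X and 11193 genes on other retained scaffolds. The testis-higher share is 44.8% in eliminated genes and 2.46% on X-named scaffolds; with median-of-ratios scaling the other retained scaffolds have more testis-higher than ovary-higher genes, 1628 and 679.

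Called genes tended to lie beside others of the same direction. Among neighbours that do not overlap, the gene after a testis-higher gene was testis-higher in 318 of 1258 cases (25.3%) and ovary-higher in 10.8%. The gene after an ovary-higher gene was testis-higher in 6.45% of 2046 cases and ovary-higher in 441 of them (21.6%). Of all genes, 11.6% were testis-higher and 15.9% ovary-higher. Eliminated genes and X-named scaffolds had other shares, as given above, and their part in the likeness of neighbours was not tested. The longest run was 9 ovary-higher genes on scaffold PgR005X (2020329 to 2237089), which began with 3 genes annotated as dystrophin-1, a link between actin and the cell membrane. Its first gene, PgR005X_g128, had 16.3 RPKM in testis and 81.3 in ovary. Members of a run that share a name can be pieces of 1 gene. A run of 5 on PgR125 joined different sperm genes: a tyrosine-protein kinase Fes/Fps (PgR125_g015, 107.1 in testis and 0 in ovary), a major sperm protein (PgR125_g016, 31 and 0) and a further MSP-domain protein (PgR125_g019, 18.8 and 0).

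The 5′ marks, which the calls did not use, differed between the directions. The spliced leader, a short RNA joined to the front of many nematode messages, was marked on any transcript of 20.6% of testis-higher genes, 54.2% of ovary-higher genes and 34.6% of genes called in neither direction. The TeloPrime mark, from a library of capped 5′ ends, was set for 42.9%, 17.1% and 11.3%. The source of the mixed RNA is not given by tissue. Marks depend on level, so genes at 100 RPKM or more were taken apart. There the spliced leader mark was on 18.4% of testis-higher, 56.3% of ovary-higher and 55.24% of uncalled genes. The TeloPrime mark was on 73.0%, 44.6% and 54.05% in that order. Ovary-higher genes were thus close to uncalled ones for the spliced leader and below them for TeloPrime. From 20 to 100 RPKM, ovary-higher and uncalled genes had the spliced leader on 56.84% and 50.17%, and TeloPrime on 15.01% and 17.52%. Single-exon genes were 6.67% of testis-higher and 3.39% of ovary-higher genes, against 9.50% of all, and the median transcript length was 1468 and 1401 nt.

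Outside the germline the 2 sets differed most in the embryo. Medians of the testis-higher genes were 45.2 RPKM in testis and 0.2 in ovary, with 1.1 for embryo, 1.2 for intestine and 0.9 for carcass. The ovary-higher genes had medians of 3.0, 30.1, 16.3, 4.0 and 3.4 in the same order. At least 5 RPKM in embryo was listed for 348 testis-higher genes (20%) and 2033 ovary-higher genes (85.0%), against 55.8% of all genes. Testis was the highest of the 5 tissues for 1601 testis-higher genes (92.0%), against 22.7% of all genes. Ovary was highest for 1838 ovary-higher genes (76.9%), against 35.9% of all genes, with embryo highest for a further 331 (13.8%). The calls select a high level in 1 gonad and exclude the other as the highest tissue, which raises these testis and ovary shares in advance. Below 1 RPKM in embryo, intestine and carcass alike were 401 testis-higher genes (23.0%), 46 ovary-higher genes (1.92%) and 13.6% of all genes.

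**Figure D5:**
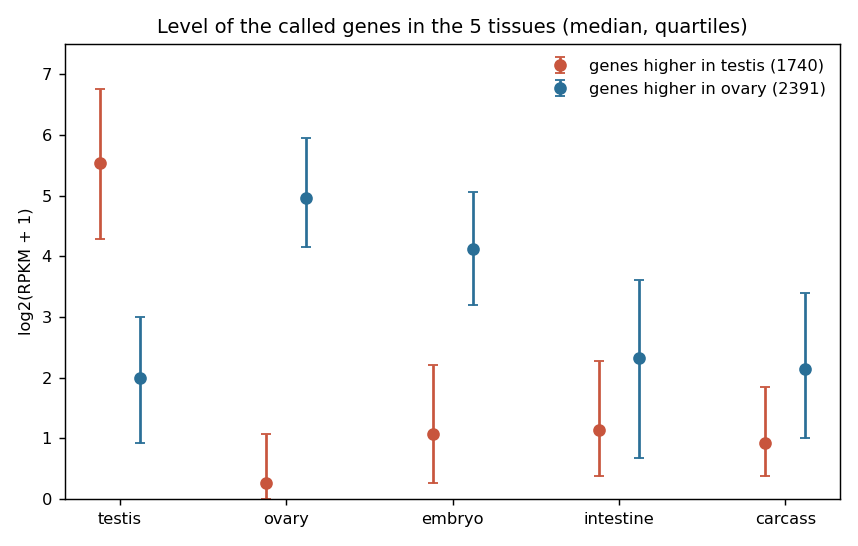
Median level, as log2(RPKM + 1), of the 1740 testis-higher genes (red) and the 2391 ovary-higher genes (blue) in testis, ovary, embryo, intestine and carcass, with bars from the first to the third quartile of genes. The testis-higher genes have medians of at most 1.2 RPKM outside testis, while the ovary-higher genes have 16.3 in embryo.

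Some testis-higher genes were more abundant in intestine than in testis. There were 107 of them, 70 by 10-fold or more, and 106 were higher in carcass than in testis, 14 by 10-fold or more. The C-type lectin protein 160 (PgR010_g147), of a sugar-binding family, had 477.8 RPKM in testis, 4.6 in ovary and 11305 in intestine, and PgR010_g149 had 445.0, 3.2 and 8735. Over 30 genes abundant in intestine and low in ovary, the median ratio of testis to intestine was 3.63%, with quartiles of 2.83% and 4.29%. Conversely, 154 genes abundant in testis and low in ovary showed a median of 1.77% of their testis level in intestine, 1.15% in carcass and 0.307% in embryo. When genes with 10-fold more in intestine or carcass were left out, a choice made after seeing the data, 1660 testis-higher and 2363 ovary-higher genes remained. The part of the intestine in the other testis-higher genes was not tested.

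Some abundant genes had close levels in the deposited values. Of 234 genes at 100 RPKM or more in both, 45 had a difference under 0.5 in size. This holds as deposited: with median-of-ratios scaling the 6 genes named next had differences of 0.70 to 1.30. Elongation factor 1-alpha (PgR004_g050), which brings aminoacyl-tRNA to the ribosome, had 1161 RPKM in testis and 1012 in ovary. Heat shock protein 90 (PgR158_g007) had 511.1 and 673.4, 40S ribosomal protein SA (PgR169_g006) had 508.5 and 564.1, and fumarate hydratase (PgR058_g058), of the citric acid cycle, had 405.0 and 384.1. Fatty-acid and retinol-binding protein 1 (PgR067_g037), a secreted nematode lipid carrier, had 454.5 in testis, 478.5 in ovary, 207.8 in carcass and 10.3 in intestine. C-type lectin domain-containing protein 160 (PgR010_g098) had 696.4 in testis and 832.0 in ovary, and 3.7, 19.2 and 38.2 in embryo, intestine and carcass.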

How the data were processed

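Testis and ovary of Parascaris univalens were measured with 1 RNA library each; RNA was extracted with Trizol, ribosomal RNA was removed with a kit made for human, mouse and rat, and libraries were made from total RNA, per the labels' protocols. The authors deposited RPKM values per transcript and tissue, and the submitters' processing notes name TopHat2 and Cufflinks without versions. The genome build, the strand setting, and the treatment of reads with several matches are not stated. No header names the unit. It was read from the deposited values, whose smallest increments depend on transcript length as single reads would; 95.4% to 100.0% of low values were whole reads within 0.05 RPKM, and these steps gave the depth.

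From the 40487 transcripts, 15027 genes were formed, each by its transcript with the highest mean of 5 tissues. The difference is log2(RPKM + 1) in testis minus ovary, which understates the change of low genes. Calls needed a difference of 2 and 5 RPKM in the higher tissue; with 1 library per tissue there is no test. Intervals are exact 95% Poisson intervals, and a fold against 0 was computed against 3 reads. Gene lists were word patterns over the annotation, corrected after reading it. The lists and the comparison were chosen with earlier results of these data known. Named genes came from the 5 called members with the largest difference per list and direction and the 5 most abundant members (at least 20 RPKM), the 40 largest differences and 15 highest levels per direction, the 5 highest uninformative genes per direction, 10 abundant in both, and the markers; opposite pairs, runs and the PgR002 stretch were chosen after their values were seen, as were single genes outside this rule. A gene inside another may share its reads: 580 genes lie so, 146 of them testis-higher and 69 ovary-higher. All per-sample columns were mapped. Results for some genes are not reported here. Alternatives were other pseudocounts, scalings, thresholds, minimums and gene representations. Python 3.11.15, numpy 2.4.6, pandas 2.3.3, scipy 1.17.1 and matplotlib 3.10.9 were used.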

Additional observations from a re-analysis of the deposited data

How the results depend on the processing

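No paired analysis was possible because each tissue had 1 library, and for the same reason no replicate could be left out. The testis-higher count stayed between 1276 and 2256 over all alternatives. The ovary-higher count, 2391 as deposited, was 1132 with a pseudocount of 5, 944 with median-of-ratios scaling, 1268 with upper-quartile scaling, 5211 with a 2-fold threshold and 892 with an 8-fold threshold. The median difference over expressed genes, −0.89 as deposited, was −1.03 and −0.54 with pseudocounts of 0.1 and 5, 0.10 and so of opposite sign with median-of-ratios scaling, −0.26 with upper-quartile scaling, −0.56 over all genes and −1.07 over genes of at least 5 RPKM. As deposited, 22 gene lists had more testis-higher than ovary-higher members and 38 had the reverse. Median-of-ratios scaling gave 44 and 12 lists, and upper-quartile scaling 35 and 22. Of 647 genes with a difference of 2 or more in size in the pools from which named genes were drawn, 643 kept their sign in the alternatives computed per gene and 469 kept that size. The 4 that turned were not described above, apart from Hexokinase-2 in the plot of opposite pairs. With the longest transcript, Hexokinase-2 (PgR032X_g010) changed from −4.80 to 0.35, T-box protein 2 from 4.39 to −1.92 (PgR012_g187) and from 4.78 to −0.12 (PgR012_g188), and Cytochrome c oxidase assembly factor 5 (PgR008_g147) from −2.73 to 0.68, or to 1.73 with RPKM summed over transcripts. Of the other genes named above, PgB01_g139, PgB05_g011, PgB05_g109, PgE079_g002, PgR002_g260, PgR005X_g122, PgR005X_g128, PgR007_g121, PgR008_g157, PgR015_g001, PgR023_g041, PgR068_g024, PgR075_g039, PgR084X_g001, PgR085_g006 and PgR106_g002 were ovary-higher as deposited but lay between −1.17 and −1.93 with median-of-ratios scaling, and PgR176_g007 and PgR176_g008, testis-higher as deposited, were at 1.84 and 1.77 with a pseudocount of 5. Which scaling is right for these libraries was not tested. With 31350000 reads in testis and 31800000 in ovary, a value of 0 means fewer reads than the table's decimals show, not absence.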
